A study of Mus musculus with 9 samples.

Results

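The collagen genes were followed in RNA-seq libraries of mouse cells sorted from embryoid bodies (EBs), the floating aggregates in which pluripotent stem cells (PSCs) differentiate. Members were all genes whose symbol has the form of a collagen chain, and 44 of the 56691 genes in the deposited tables met this rule. By the structure of the protein they were grouped into 11 fibrillar collagens, 6 basement membrane collagens (the type IV chains) and 27 other collagens. BVSC PSCs, with fluorescent reporters of Blimp1 (mVenus, BV) and Stella (CFP), held a doxycycline (DOX)-inducible pInducer20 vector with mouse Nrf1 cDNA (NRF1 OE) or no insert (Ctrl). All groups shared both reporters, the vector backbone and DOX at 1.5 μg/mL from day 2 to day 5. The 4 groups were BV+ NRF1 OE (n = 2), BV+ Ctrl (n = 2), BV- NRF1 OE (n = 3) and BV- Ctrl (n = 2). The study treats BV+ cells as PGC-like cells (PGCLCs) and BV- cells as somatic cells, and its methods give day 5 as the time of sorting for BV+ cells. The NRF1 protein binds promoters of many nuclear genes whose products serve respiration.

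Collagens are the main structural proteins of the extracellular matrix, and each molecule is a triple helix of chains. Fibrillar collagens such as types I, III and V assemble into the fibrils of connective tissue and are typical of mesenchymal cells. Type IV collagen instead forms the sheet-like network of basement membranes, which early embryonic epithelia already possess. The other collagens decorate fibrils, form beaded filaments, anchor epithelia or span the plasma membrane.

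Total counts per library lay between 13702162 and 19625460, and 37 of the 44 collagens passed the filter on low counts. Groups were compared with edgeR on the counts, and a gene was called where its p, adjusted for the 16903 genes tested, was under 0.05. Nrf1 itself had 95.6 and 99.3 CPM (counts scaled to library size) in BV+ NRF1 OE against 91.0 and 90.3 CPM in BV+ Ctrl, which differed by 0.10 ± 0.10 on the log2 scale (± the standard error, SE; adjusted p = 0.489). In BV- NRF1 OE it had 119, 122 and 125 CPM against 99.0 and 105 CPM in BV- Ctrl (log2 fold change 0.26 ± 0.10, adjusted p = 0.0718). The counts therefore did not show the overexpression past the threshold in either population, and NRF1 OE is used below as the name the labels give. Between the NRF1 OE groups Nrf1 was lower in BV+ cells (log2 fold change -0.33 ± 0.10, edgeR adjusted p = 0.0431). Between the Ctrl groups it did not pass the test (-0.17 ± 0.10, adjusted p = 0.819). Germ cell markers were compared between the sorted populations as well. Prdm1, which encodes BLIMP1, had 57.4 and 62.7 CPM in BV+ Ctrl and 58.5 and 57.2 CPM in BV- Ctrl, and the 8 germ cell markers summed to 927 to 960 CPM in BV+ Ctrl and 993 to 1004 CPM in BV- Ctrl. With edgeR 0 of the 8 were called in that comparison, and 2 had an unadjusted p under 0.05, where 1.1% of all genes were called higher and 0.0237% lower. With NRF1 OE against Ctrl in BV- cells, 4 of the 8 were higher and 0 lower, beside 10.3% and 6.98% of all genes. In BV+ cells 1 of the 8, Dppa3, was higher with NRF1 OE (log2 fold change 0.64, edgeR adjusted p = 0.0252) and 0 were lower. Within NRF1 OE, 3 of the 8 were lower in BV+ cells and 0 higher, beside 3.85% and 9.9% of all genes. These were Nanos3, Dppa3 and Tfap2c, with log2 fold changes of -1.04, -0.65 and -0.43 (edgeR adjusted p = 0.00350, 0.00536 and 0.0461). BV+ and BV- are therefore also used as labels. These are bulk samples, so a change in the share of collagen-producing cells and a change in RNA per cell cannot be told apart.

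A single gene dominated the family. Col18a1, the basement membrane collagen from which endostatin is cleaved, had 107.3 and 103 FPKM (the authors' level per gene, scaled for transcript length and sequencing depth) in BV+ NRF1 OE. It had 89.6 and 89.7 FPKM in BV+ Ctrl, 117, 151 and 134 FPKM in BV- NRF1 OE, and 94.6 and 100.4 FPKM in BV- Ctrl. The 3 BV- NRF1 OE libraries were above all others. Col18a1 was the collagen with the highest FPKM in every library, and it is counted here among the other collagens because it is no type IV chain. By the mean over the groups it was followed by the ubiquitous type IV chain Col4a1, between 13.5 and 27.7 FPKM, and its partner Col4a2, between 7.88 and 18.1 FPKM, although in both BV+ NRF1 OE libraries Col1a2 was second. Fibrillar collagens, in contrast, set the BV+ NRF1 OE, BV+ Ctrl and BV- libraries apart. They summed to 89.4 and 58.0 FPKM in BV+ NRF1 OE, 21.1 and 22.0 FPKM in BV+ Ctrl, 6.74, 8.86 and 7.69 FPKM in BV- NRF1 OE, and 5.73 and 7.25 FPKM in BV- Ctrl. Their share of all collagen FPKM was 33.98% and 27.4% in BV+ NRF1 OE, 13.4% and 13.9% in BV+ Ctrl, and between 3.96% and 4.80% in the 5 BV- libraries. Summed type IV levels overlapped between the groups, with 50.5 and 37.6 FPKM in BV+ NRF1 OE and between 21.6 and 38.1 FPKM in the other 7 libraries. The other collagens without Col18a1 ranged only from 9.93 to 15.8 FPKM.

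**Figure D1:**
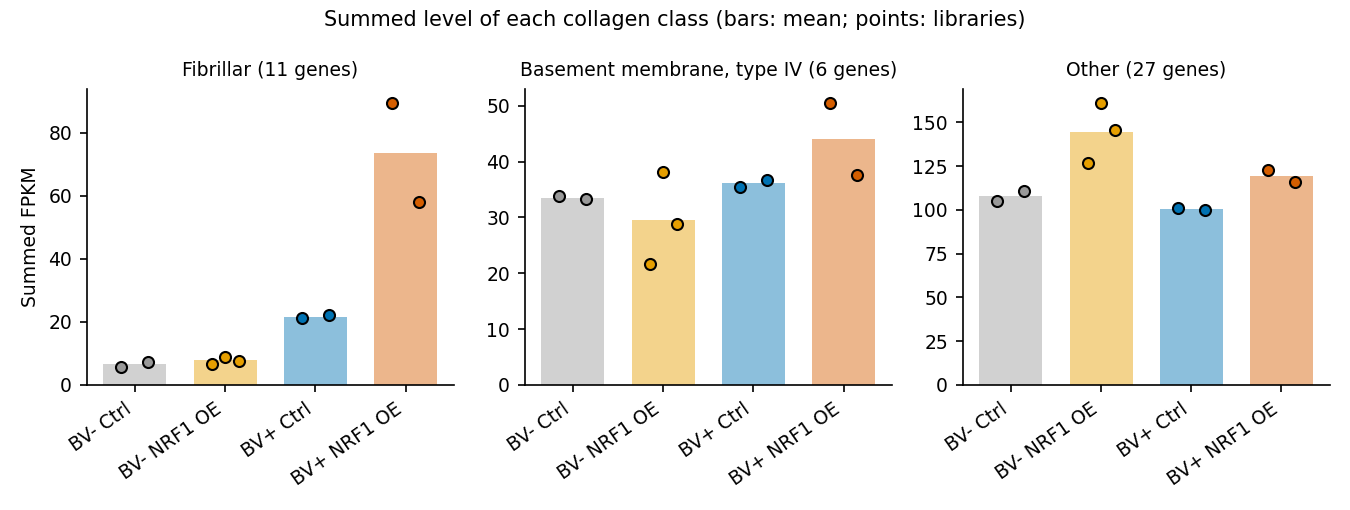
Summed FPKM of the 11 fibrillar, 6 basement membrane (type IV) and 27 other collagens, with a bar for the mean of each group and a point for each of the 9 libraries. Fibrillar collagens sat between 58.0 and 89.4 FPKM in BV+ NRF1 OE, about 21 to 22 FPKM in BV+ Ctrl and under 9 FPKM in every BV- library, whereas the type IV sums overlapped.

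Sequences before the transcription start are shown for 4 genes that were higher in BV+ NRF1 OE than in BV+ Ctrl: the fibrillar genes Col1a2 and Col5a1, and the neighbouring type IV genes Col4a5 and Col4a6. Each is the 250 bases upstream of the start, 5′ to 3′ on the gene's strand, from RefSeq on GRCm38.p6, an earlier build than the GRCm39 of the deposited counts. Col1a2 lies on the plus strand at chr6:4505368-4505617, Col5a1 on the plus strand at chr2:27886175-27886424, Col4a5 on the plus strand at chrX:141475169-141475418 and Col4a6 on the minus strand at chrX:141474077-141474326. Capitals mark every match to the GC box GGGCGG or to CCAAT on either strand.
Col1a2 promoter: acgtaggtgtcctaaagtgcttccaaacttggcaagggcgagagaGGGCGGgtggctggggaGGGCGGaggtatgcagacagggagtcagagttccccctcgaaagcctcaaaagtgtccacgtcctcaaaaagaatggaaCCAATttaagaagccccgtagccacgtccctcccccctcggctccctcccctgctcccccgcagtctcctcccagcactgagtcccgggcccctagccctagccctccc
Col5a1 promoter: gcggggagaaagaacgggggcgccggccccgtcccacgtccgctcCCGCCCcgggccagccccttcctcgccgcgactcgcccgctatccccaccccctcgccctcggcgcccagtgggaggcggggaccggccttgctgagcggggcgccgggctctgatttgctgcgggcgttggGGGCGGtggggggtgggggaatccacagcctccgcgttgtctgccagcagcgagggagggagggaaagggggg
Col4a5 promoter: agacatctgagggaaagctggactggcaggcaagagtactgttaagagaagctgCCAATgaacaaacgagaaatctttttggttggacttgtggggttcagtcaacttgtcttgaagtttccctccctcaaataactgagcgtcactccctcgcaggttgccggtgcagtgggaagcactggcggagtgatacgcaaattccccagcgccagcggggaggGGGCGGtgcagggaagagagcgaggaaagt
Col4a6 promoter: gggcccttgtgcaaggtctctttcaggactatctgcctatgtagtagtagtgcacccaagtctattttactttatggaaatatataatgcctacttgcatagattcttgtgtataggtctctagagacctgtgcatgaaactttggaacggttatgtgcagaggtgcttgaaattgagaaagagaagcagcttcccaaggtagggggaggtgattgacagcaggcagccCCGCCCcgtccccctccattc
RefSeq promoters matched 35 of the 44 collagens, with 38 windows in all. A GC box stood in 22 of the 38 windows (57.9%) and in 32.7% of all 32851 promoter windows of this length, and the collagen windows had a median GC content of 59.0% against 52.4%. CCAAT, a shorter and commoner motif, stood in 13 windows (34.2%) against 33.8% of all promoters. The letters GCATGCGC, from the core of the NRF1 consensus, stood in 0 of the 38 windows and in 2.26% of all promoters, so these letters are not in these windows. With so rare a motif, 38 windows are too few to tell a lower share from the share of all promoters. Only this exact form was searched, on either strand and before the start, and 9 collagens had no window. Whether NRF1 binds these genes was not tested here. Starts of Col4a5 and Col4a6 lie 1343 bases apart on opposite strands, and those of Col4a1 and Col4a2 lie 21 bases apart on opposite strands.

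To learn what the NRF1 OE vector went with in BV+ cells, BV+ NRF1 OE was compared with BV+ Ctrl. Fibrillar collagens and the minor type IV chains were higher in BV+ NRF1 OE, 2.08- to 4.80-fold where called, whereas the abundant collagens Col18a1, Col4a1 and Col4a2 did not pass the test. Of the 37 collagens tested, 13 were higher (35.1%) and 1 was lower (2.70%), beside 6.24% higher and 1.78% lower among all 16903 genes tested. By class, 7 of 10 fibrillar, 2 of 4 type IV and 4 of 23 other collagens were higher. The median log2 fold change was 1.18 for the fibrillar, 1.00 for the type IV and 0.27 for the other collagens, beside 0.04 for all genes. These calls rested on each of 3 libraries: 0 of the collagens and 0 of all genes were called without BV+ NRF1 OE replicate 1, without BV+ Ctrl replicate 1 or without BV+ Ctrl replicate 2. Fold changes stayed positive without any single library for each of the 13.

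Type I collagen, the major fibril former, is made of 2 Col1a1 chains and 1 Col1a2 chain. Col1a2 had 47.9 and 29.7 FPKM in BV+ NRF1 OE, 8.21 and 8.42 FPKM in BV+ Ctrl, 1.35, 1.27 and 0.78 FPKM in BV- NRF1 OE, and 0.59 and 0.88 FPKM in BV- Ctrl. Both BV+ NRF1 OE libraries were above both BV+ Ctrl libraries, and the 2 BV- groups overlapped. The log2 fold change between the BV+ groups was 2.26 ± 0.27 (SE), or 4.80-fold (adjusted p = 0.00965). Col1a1 had 12.1 and 10.1 FPKM in BV+ NRF1 OE, 2.76 and 3.11 FPKM in BV+ Ctrl, 0.40, 0.51 and 0.47 FPKM in BV- NRF1 OE, and 0.30 and 0.51 FPKM in BV- Ctrl. It thus showed the same order of groups as its partner chain, with a log2 fold change of 1.96 ± 0.19 between the BV+ groups (adjusted p = 0.00669).

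Type V and XI chains nucleate and limit the width of collagen fibrils. Col5a1 had 8.69 and 5.79 FPKM in BV+ NRF1 OE, 3.16 and 3.06 FPKM in BV+ Ctrl, and between 1.50 and 1.79 FPKM in the 5 BV- libraries (log2 fold change between the BV+ groups 1.26 ± 0.18, adjusted p = 0.0125). Its exons overlap 2 non-coding genes on the opposite strand, and whether the counting used strand is not given in the sources used here. Col5a2 had 5.10 and 2.99 FPKM in BV+ NRF1 OE, 0.87 and 1.03 FPKM in BV+ Ctrl, 0.30, 0.27 and 0.41 FPKM in BV- NRF1 OE, and 0.18 and 0.31 FPKM in BV- Ctrl. It followed the same order of groups as its partner chain Col5a1, and its log2 fold change between the BV+ groups was 2.13 ± 0.28 (adjusted p = 0.0107). Col11a1 had 1.87 and 1.29 FPKM in BV+ NRF1 OE, 0.70 and 0.82 FPKM in BV+ Ctrl, 0.18, 0.19 and 0.18 FPKM in BV- NRF1 OE, and 0.30 and 0.27 FPKM in BV- Ctrl. It rose by 1.09 ± 0.20 on the log2 scale in the BV+ comparison (adjusted p = 0.0160). In each of these 3 genes the BV+ NRF1 OE libraries lay above all others, and BV+ NRF1 OE replicate 1 was the highest.

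Col2a1, the fibrillar collagen of cartilage, had 12.3 and 6.83 FPKM in BV+ NRF1 OE, 4.66 and 4.76 FPKM in BV+ Ctrl, 2.54, 4.08 and 3.71 FPKM in BV- NRF1 OE, and 2.39 and 3.14 FPKM in BV- Ctrl. Its BV+ NRF1 OE libraries stood further from each other than the lower of them from BV+ Ctrl, and the change of 1.06 ± 0.27 (log2, adjusted p = 0.0398) was 0.57 without replicate 1 and 0.63 with offsets for GC content and transcript length. Col3a1, which co-assembles with type I in soft tissues, was low, at 0.79 and 0.66 FPKM in BV+ NRF1 OE, 0.18 and 0.21 FPKM in BV+ Ctrl, 0.06, 0.07 and 0.03 FPKM in BV- NRF1 OE, and 0.01 and 0.02 FPKM in BV- Ctrl (log2 fold change between the BV+ groups 1.94 ± 0.30, adjusted p = 0.0126). The fibrillar genes Col5a3, Col11a2 and Col27a1 gave log2 fold changes of -0.13, 0.88 and 0.31 and did not pass the test.

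Type IV chains fall into 3 gene pairs, each transcribed in opposite directions from a shared region, and they are described here pair by pair. Col4a1 and Col4a2 make the network found in nearly all basement membranes. Col4a1 had 27.7 and 22.1 FPKM in BV+ NRF1 OE, 22.8 and 23.2 FPKM in BV+ Ctrl, 13.5, 23.0 and 18.2 FPKM in BV- NRF1 OE, and 22.6 and 21.9 FPKM in BV- Ctrl. Col4a2 had 18.1 and 13.2 FPKM in BV+ NRF1 OE, 11.7 and 12.4 FPKM in BV+ Ctrl, 7.88, 14.7 and 10.4 FPKM in BV- NRF1 OE, and 10.95 and 11.2 FPKM in BV- Ctrl. For Col4a1 the groups overlapped, and Col4a2 was higher in both BV+ NRF1 OE libraries than in any Ctrl library but overlapped with BV- NRF1 OE. Neither passed the test in the BV+ comparison, with log2 fold changes of 0.15 ± 0.20 and 0.41 ± 0.23, and the value for Col4a1 turned to -0.15 with offsets for GC content and transcript length. Exons of Col4a1 and Col4a2 overlap each other on opposite strands, so reads there may not be split cleanly between them.

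Col4a5 and Col4a6 encode the chains of a network found in some specialised basement membranes. Col4a5 had 3.45 and 1.77 FPKM in BV+ NRF1 OE, 0.69 and 0.80 FPKM in BV+ Ctrl, 0.20, 0.28 and 0.29 FPKM in BV- NRF1 OE, and 0.13 and 0.16 FPKM in BV- Ctrl. It rose by 1.85 ± 0.30 on the log2 scale in the BV+ comparison (adjusted p = 0.0127). Col4a6 had 1.28 and 0.62 FPKM in BV+ NRF1 OE, 0.35 and 0.30 FPKM in BV+ Ctrl, 0.09, 0.10 and 0.04 FPKM in BV- NRF1 OE, and 0.04 and 0.04 FPKM in BV- Ctrl. It rose by 1.60 ± 0.37 (adjusted p = 0.0336), and without BV+ NRF1 OE replicate 1 this was 0.96. Col4a3 and Col4a4, the chains of the kidney glomerulus, had at most 1 and 7 counts in a library and were not tested.

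**Figure D2:**
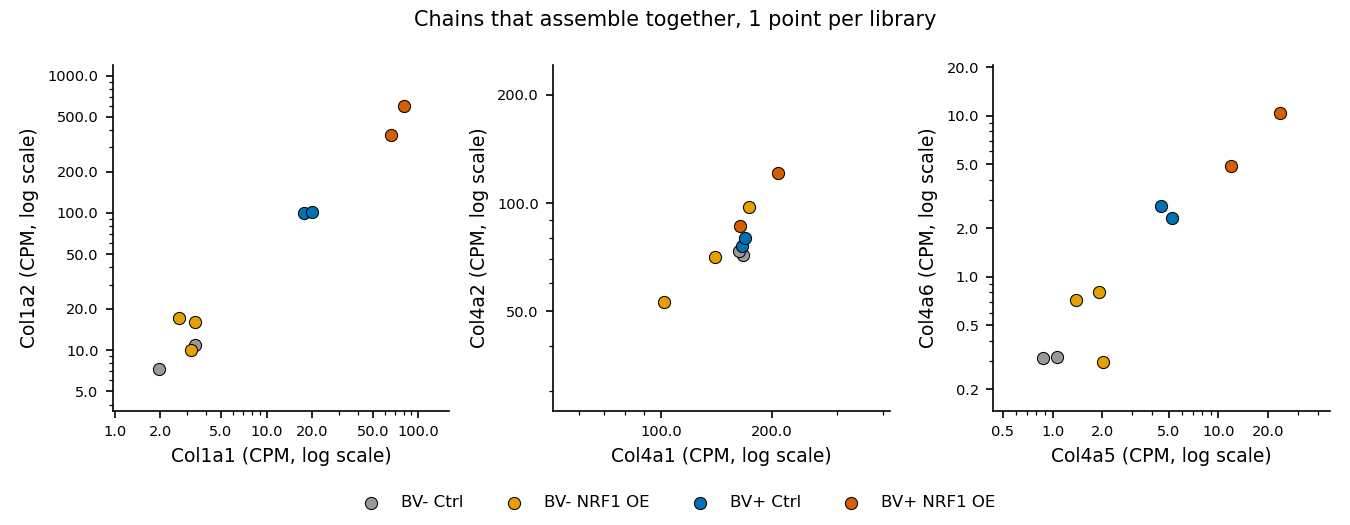
CPM of 3 pairs of chains that assemble together, on log axes, with a point for each of the 9 libraries coloured by group. Col1a1 with Col1a2 and Col4a5 with Col4a6 spread from the BV- libraries at the bottom left to BV+ NRF1 OE at the top right, whereas the groups mix for Col4a1 with Col4a2.

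Among the other collagens, the 4 that were higher in BV+ NRF1 OE came from different structural groups. Col12a1, which binds the surface of type I fibrils, had 1.01 and 0.76 FPKM in BV+ NRF1 OE, 0.31 and 0.32 FPKM in BV+ Ctrl, 0.05, 0.03 and 0.05 FPKM in BV- NRF1 OE, and 0.03 and 0.06 FPKM in BV- Ctrl (log2 fold change between the BV+ groups 1.53 ± 0.23, adjusted p = 0.0125). Col6a1, a chain of the beaded filaments around cells, rose by a log2 change of 1.64 ± 0.33 (adjusted p = 0.0222) and Col26a1 by 1.67 ± 0.35 (adjusted p = 0.0251), which was 0.97 without BV+ NRF1 OE replicate 1. Col8a1, a short-chain network collagen of vessels and the cornea, gave 1.35 ± 0.38 at an adjusted p of 0.0499, and it missed the threshold with library size alone or upper-quartile factors as scaling (adjusted p = 0.0572 and 0.0550). Col20a1, the only collagen lower in BV+ NRF1 OE, had 0.14 and 0.12 FPKM against 0.39 and 0.36 FPKM in BV+ Ctrl, and it fell by 1.49 on the log2 scale (SE 0.35, adjusted p = 0.0330). It had 0.14, 0.13 and 0.11 FPKM in BV- NRF1 OE and 0.26 and 0.22 FPKM in BV- Ctrl, rests on 9 to 34 counts in a library, and shares exons with another gene. Of the 6 type VI chains 1 was higher, and the median log2 fold change of these 6 was -0.37. The transmembrane collagens Col13a1, Col17a1 and Col23a1 gave log2 fold changes of -0.28, -0.86 and 0.19 and did not pass the test.

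Col9a2, a cartilage collagen that sits on type II fibrils, was measured at 5.33 and 4.46 FPKM in BV+ NRF1 OE, 3.59 and 3.33 FPKM in BV+ Ctrl, 3.83, 4.08 and 4.32 FPKM in BV- NRF1 OE, and 3.49 and 3.60 FPKM in BV- Ctrl. Its log2 fold change of 0.54 ± 0.16 in the BV+ comparison missed the threshold (adjusted p = 0.0556) and was 0.09 with offsets for GC content and length. DESeq2 called it, as did edgeR with a filter of 10 counts on average and with any 1 of 3 libraries left out. For Col18a1 the BV+ values gave 0.27 ± 0.12 (adjusted p = 0.139), which turned to -0.10 with those offsets. Of the 7 collagens left out by the filter, Col24a1, Col25a1 and Col28a1 had at most 10 counts in a library, Col10a1 at most 3 and Col19a1 at most 2.

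**Figure D3:**
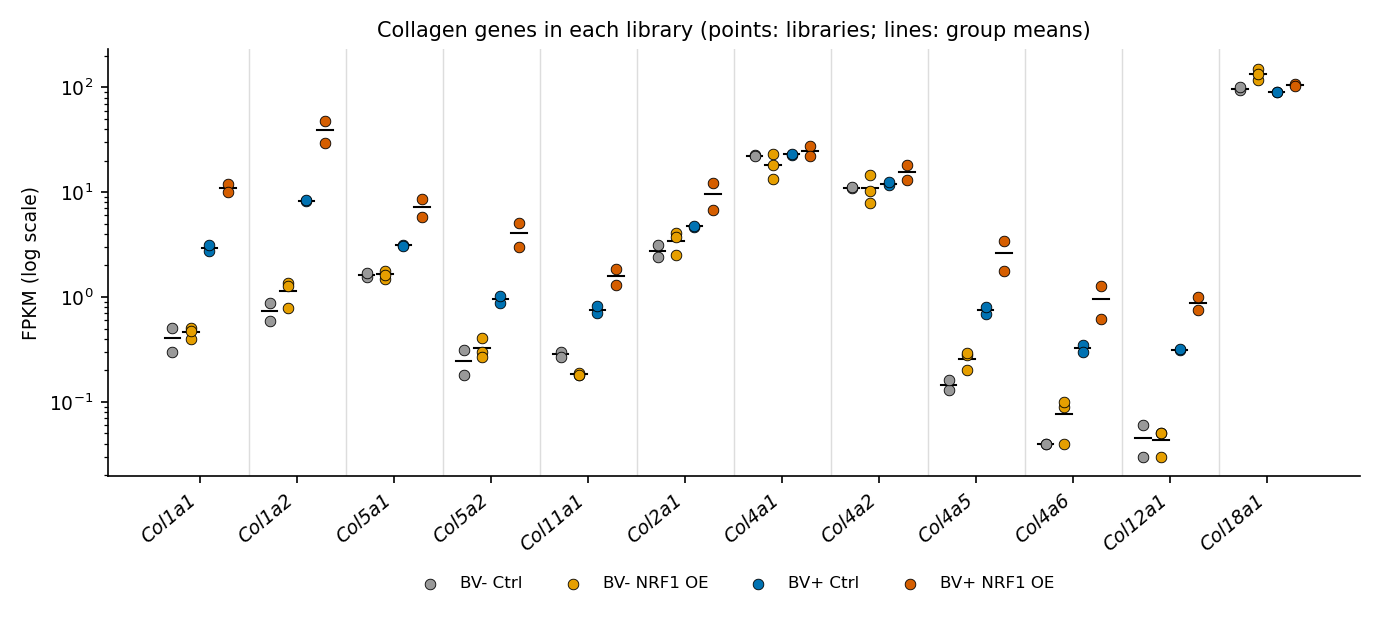
FPKM of 12 collagen genes on a log axis, with a point for each library and a line for each group mean. For Col1a1, Col1a2, Col5a1, Col5a2, Col11a1, Col2a1, Col4a5, Col4a6 and Col12a1 both BV+ NRF1 OE libraries lie above both BV+ Ctrl libraries. The BV+ Ctrl libraries of these genes lie above every BV- library, whereas Col4a1, Col4a2 and Col18a1 show no such order.

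The same vector comparison was made in BV- cells, where Col18a1 and Col3a1 were the collagens called. Of the 37 collagens, 2 were higher in BV- NRF1 OE (5.41%, beside 10.3% of all genes) and 0 were lower (beside 6.98% of all genes). DESeq2 called 3 higher and 0 lower, and 8 collagens had an unadjusted p under 0.05 in edgeR. The medians were 0.27 for the fibrillar, 0.43 for the type IV and -0.04 for the other collagens, beside 0.01 for all genes. Col18a1 rose by 0.50 ± 0.11 (adjusted p = 0.0317), with all 3 BV- NRF1 OE libraries above both BV- Ctrl libraries, and this call was lost with offsets for GC content and length (0.22, adjusted p = 0.0677). With those offsets 0 collagens were called higher and 1, Col4a1, was called lower. Col3a1 was called at 2.08 ± 0.62 (adjusted p = 0.0436) from 10, 9 and 5 counts against 1 and 3, so this fold change rests on very few reads. Of the type I chains, Col1a2 gave 0.64 ± 0.28 (edgeR adjusted p = 0.109) and was called by DESeq2 and by edgeR with no filter on low counts. Col1a1 gave 0.19 ± 0.24 and was not called by either tool. Col11a1 gave -0.63 ± 0.23 (adjusted p = 0.0723). Without BV- NRF1 OE replicate 3, or without any 1 of the 4 Ctrl libraries, 0 collagens and at most 35 of all genes were called, and without either BV+ NRF1 OE library 1 collagen was called.

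Whether the NRF1 OE effect differed between BV+ and BV- cells was tested as an interaction term. With edgeR 0 of the 37 collagens and 0 (0%) of the 16903 genes passed, although 8 collagens had an unadjusted p under 0.05. DESeq2 called 29 genes, of which 5 were collagens, all fibrillar: Col1a1, Col1a2, Col5a1, Col5a2 and Col11a1. For Col1a1 the difference of the log2 fold changes was 1.77 ± 0.31 (edgeR adjusted p = 0.455), for Col11a1 1.72 ± 0.30 (adjusted p = 0.455), for Col5a1 1.22 ± 0.26 (adjusted p = 0.493) and for Col1a2 1.62 ± 0.37 (adjusted p = 0.493). edgeR called the same 5 with no filter on low counts, and 4 collagens without BV- NRF1 OE replicate 2.

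**Figure D4:**
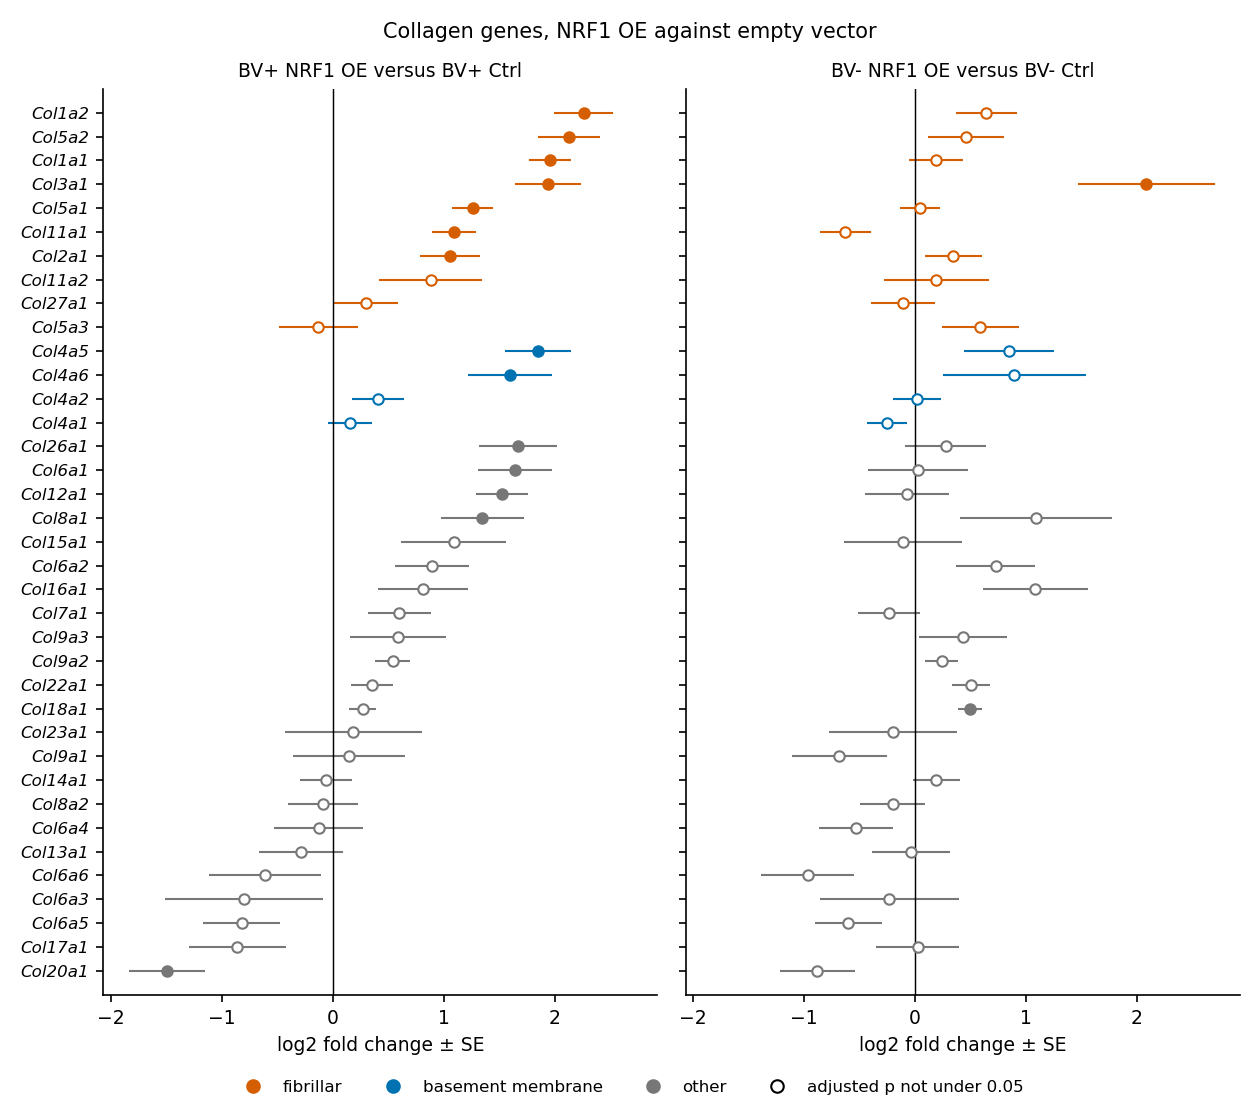
Log2 fold change ± SE of the 37 collagens tested for NRF1 OE against Ctrl, in BV+ cells on the left and in BV- cells on the right, coloured by class, with open symbols where the adjusted p is not under 0.05. In BV+ cells 7 of 10 fibrillar and 2 of 4 type IV collagens are filled and to the right of 0, and in BV- cells only Col3a1 and Col18a1 are filled.

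BV+ and BV- cells were next compared within the Ctrl vector, and again within NRF1 OE. Between the Ctrl groups fibrillar collagens, Col4a5 and Col4a6 were already higher in BV+ cells, by 2.60- to 15.2-fold where called. Of the 37 collagens, 9 were higher in BV+ Ctrl (24.3%, beside 1.1% of all genes) and 0 were lower (beside 0.0237% of all genes). DESeq2 also called 9 higher and 0 lower, and 15 collagens had an unadjusted p under 0.05 in edgeR. The 9 were 5 fibrillar, 2 type IV and 2 other collagens, and the medians were 1.14 for the fibrillar, 1.21 for the type IV and 0.02 for the other collagens, beside -0.01 for all genes. Col1a2 differed by 3.46 ± 0.30 on the log2 scale (11.03-fold, adjusted p = 0.000552) and Col1a1 by 2.80 ± 0.23 (6.98-fold, adjusted p = 0.000534). Col12a1 gave 2.76 ± 0.31 (adjusted p = 0.00168). Col3a1 gave 3.92 ± 0.52 (adjusted p = 0.00454) from 26 and 38 counts against 1 and 3. Of the type IV chains, the neighbouring genes Col4a5 and Col4a6 were called. Col4a5 and Col4a6 gave 2.31 ± 0.39 (adjusted p = 0.0139) and 2.96 ± 0.55 (adjusted p = 0.0263). The other type IV chains tested, Col4a1 and Col4a2, stood at 0.02 ± 0.20 and 0.10 ± 0.23. Col8a1 (2.81 ± 0.59, adjusted p = 0.0490) was not called with a filter of 10 counts on average. Leaving out 1 of the 4 Ctrl libraries reduced the calls, to 5 without BV+ Ctrl replicate 1, 4 without BV+ Ctrl replicate 2, 3 without BV- Ctrl replicate 1 and 4 without BV- Ctrl replicate 2.

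Within NRF1 OE, fibrillar collagens, Col4a5 and Col4a6 were again higher in BV+ cells. Of the 37, 16 were higher in BV+ NRF1 OE than in BV- NRF1 OE (43.2%, beside 9.9% of all genes) and 1 was lower (2.70%, beside 3.85% of all genes). The 16 were 7 fibrillar, 2 type IV and 7 other collagens, with medians of 2.61, 1.904 and 0.00464 for these classes beside -0.00491 for all genes. Col1a2 differed by 5.08 ± 0.26 (33.9-fold, adjusted p = 1.33e-06), Col1a1 by 4.57 ± 0.19 (23.8-fold, adjusted p = 5.33e-07), Col12a1 by 4.35 ± 0.26 (adjusted p = 2.84e-06) and Col11a1 by 3.10 ± 0.20 (adjusted p = 4.06e-06). By edgeR with all libraries, the collagens called here but not between the Ctrl groups were Col2a1, Col5a1, Col6a1, Col6a2, Col7a1, Col15a1 and Col26a1, and the interaction given above is the test of that difference. Between the Ctrl groups Col5a1 was called by DESeq2, under 5 other settings that kept all libraries and with any 1 of 3 libraries left out, and Col2a1 was called under 2 of those 5. Col6a2, Col7a1 and Col15a1 were not called with only the groups compared in the fit, nor with the replicate block. Col7a1 also missed the threshold with offsets for GC content and length (edgeR adjusted p = 0.0812), and Col15a1 with DESeq2 and with upper-quartile factors. Without 1 library at a time the log2 fold change ranged from 0.51 to 1.46 for Col6a2, 0.74 to 1.21 for Col7a1 and 1.11 to 1.78 for Col15a1. Col18a1 was lower in BV+ NRF1 OE (log2 fold change -0.37 ± 0.11, adjusted p = 0.0428), and it missed the threshold with library size alone as scaling (adjusted p = 0.0573) and when any 1 of 8 libraries was left out. It was also not called with a filter of 10 counts on average, with only the groups compared in the fit or with the replicate block (edgeR adjusted p = 0.175 with the block). With offsets for GC content and length its change was -0.62 (adjusted p = 3.83e-05), and 15 collagens were higher and 4 lower.

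**Figure D5:**
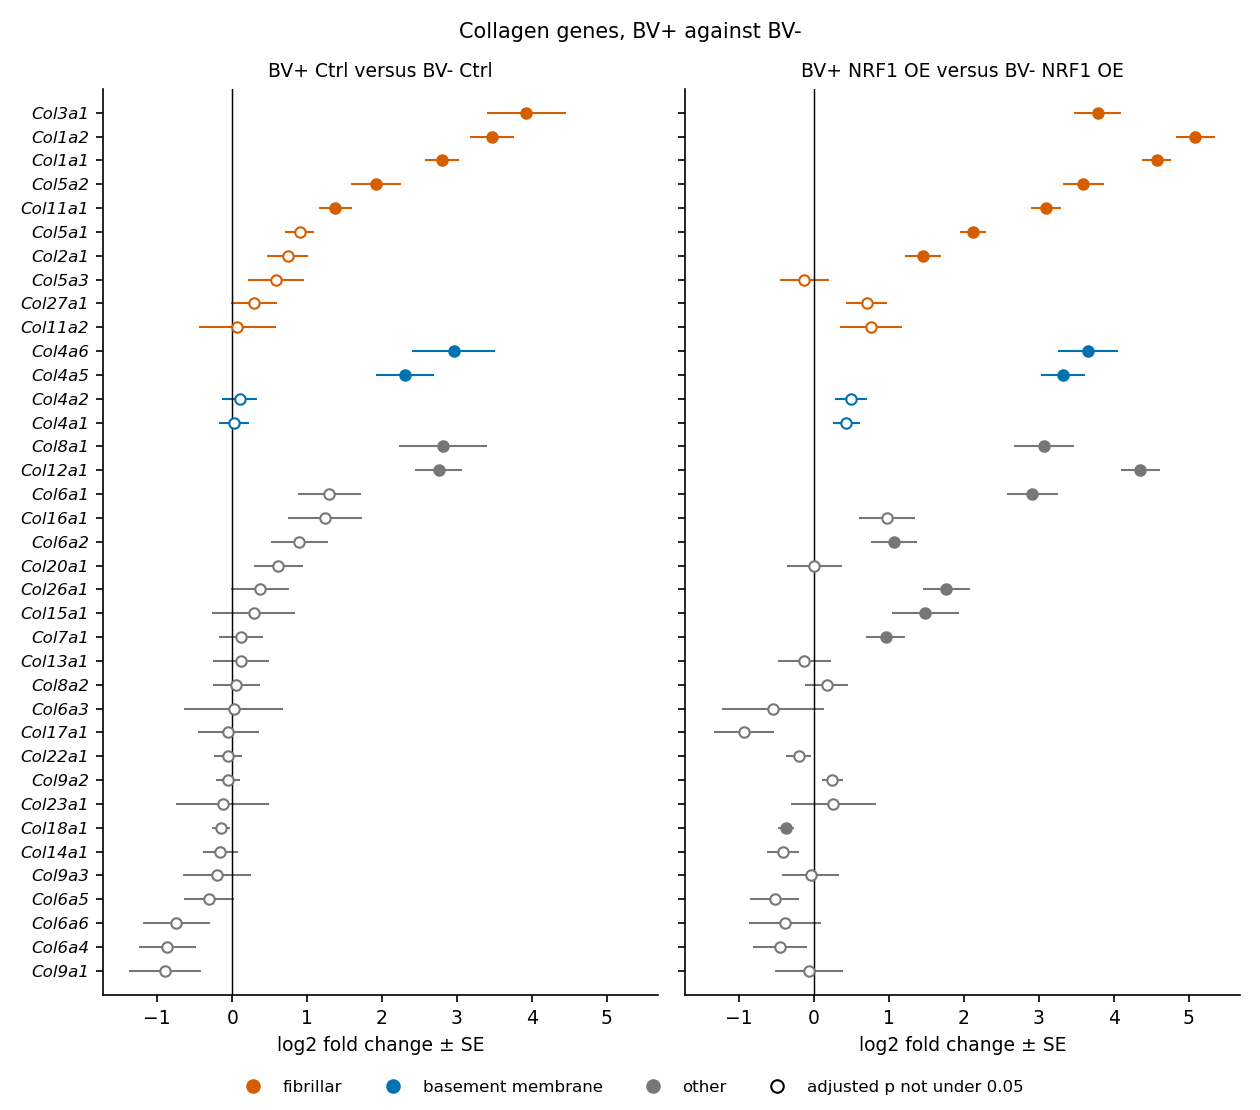
Log2 fold change ± SE of the 37 collagens tested for BV+ against BV-, within Ctrl on the left and within NRF1 OE on the right, coloured by class, with open symbols where the adjusted p is not under 0.05. Col1a1, Col1a2, Col3a1, Col5a2, Col11a1, Col4a5, Col4a6, Col8a1 and Col12a1 are filled and above 0 in both panels, with Col1a2 at 3.46 on the left and 5.08 on the right.

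The machinery that modifies, secretes and crosslinks collagen also included genes that were higher in BV+ NRF1 OE. Of 58 genes of this pathway 51 were tested, and 17 were higher and 0 lower in BV+ NRF1 OE than in BV+ Ctrl (33.3% higher beside 6.24% of all genes, 1.78% of which were lower, with a median log2 fold change of 0.37 beside 0.04). In either direction, 29 of the 51 had an unadjusted p under 0.05 in edgeR. Among genes tested, 5 of 19 for hydroxylation and folding, 1 of 7 for propeptide removal and 3 of 4 for crosslinking were higher. The median log2 fold change for propeptide removal was -0.03. Serpinh1, the collagen chaperone HSP47, rose by 1.30 ± 0.24 (adjusted p = 0.0165), and Fkbp10, a prolyl isomerase of the endoplasmic reticulum, by 1.18 ± 0.24 (adjusted p = 0.0217). Bmp1, which removes the C-propeptide of fibrillar procollagen, rose by 1.57 ± 0.26 (adjusted p = 0.0134), and the lysyl oxidase Loxl1, which crosslinks fibres, by 1.57 ± 0.24 (adjusted p = 0.0127). Of the collagen-cleaving proteases 2 of 3 tested were higher, of the receptors 3 of 7 and of the basement membrane partners 3 of 11. Named from these lists are Mmp9 at 1.40 ± 0.24 (adjusted p = 0.0146), Mmp14 at 1.12 ± 0.21 (adjusted p = 0.0181), the uptake receptor Mrc2 at 1.46 ± 0.28 (adjusted p = 0.0199) and the matrix protein Sparc at 1.07 ± 0.20 (adjusted p = 0.0179). In BV- cells 6 of the 51 were higher (11.8%) and 3 lower (5.88%) with NRF1 OE, shares near the 10.3% and 6.98% of all genes. They included P3h1, a prolyl hydroxylase, at 0.55 ± 0.13 (adjusted p = 0.0328) and Tll1, a relative of Bmp1, at -1.82 ± 0.51 (adjusted p = 0.0394). Between the Ctrl groups 3 were higher in BV+ cells (5.88%, beside 1.1% of all genes) and 0 lower (beside 0.0237%), and 12 had an unadjusted p under 0.05. The 3 were Mmp9 at 2.07 ± 0.29 (adjusted p = 0.00529), Bmp1 at 1.91 ± 0.30 (adjusted p = 0.0100) and Loxl3 at 1.81 ± 0.35 (adjusted p = 0.0335). Within NRF1 OE 22 were higher in BV+ cells (43.1%, beside 9.9% of all genes) and 0 lower (beside 3.85%), and 30 had an unadjusted p under 0.05, with Mmp9 at 3.43 ± 0.24, Bmp1 at 3.01 ± 0.25 and the laminin chain Lama4 at 2.61 ± 0.24.

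Some mesenchyme and endothelial markers were also higher in BV+ NRF1 OE. In BV+ NRF1 OE against BV+ Ctrl, 2 of 6 mesenchyme markers tested were higher and 1 lower. Of the endothelial markers 3 of 5 were higher. With edgeR 0 of 9 extraembryonic endoderm (1 at an unadjusted p under 0.05) and 0 of 4 cartilage markers (0 at an unadjusted p under 0.05) were called. Of the germ cell markers 1 of 8 was higher and 0 lower, and of the pluripotency markers 0 of 6 were higher and 2 lower. These stand beside 6.24% higher and 1.78% lower among all genes tested. The 10 mesenchyme markers summed to 290 to 535 CPM in BV+ NRF1 OE, 90.8 to 102 CPM in BV+ Ctrl, 71.8 to 99.4 CPM in BV- NRF1 OE and 50.9 to 58.5 CPM in BV- Ctrl. Acta2, smooth muscle actin, made up most of this, with 505 and 269 CPM in BV+ NRF1 OE and 83.1 and 72.8 CPM in BV+ Ctrl. Pdgfrb rose by 1.89 ± 0.28 in that comparison (adjusted p = 0.0125), whereas Pdgfra was lower, with a log2 fold change of -1.17 ± 0.22 (adjusted p = 0.0174), and the fibroblast marker Dcn had at most 0.515 CPM. Of the 10 markers, Lum was at 0 in both BV- Ctrl libraries. The 5 endothelial markers summed to 149 to 188 CPM in all groups, and Pecam1, with 100 to 171 CPM, made up most of this sum. Kdr was higher by 1.49 ± 0.23 in BV+ NRF1 OE than in BV+ Ctrl (adjusted p = 0.0125), and Emcn was at 0 in both BV- Ctrl libraries. Kdr and Cdh5 were also higher in BV+ Ctrl than in BV- Ctrl, by 1.75 ± 0.27 (adjusted p = 0.00869) and 2.09 ± 0.42 (adjusted p = 0.0383). They were 2 of the 5 endothelial markers, with 0 lower, beside 1.1% of all genes higher and 0.0237% lower. With edgeR 0 of the 6 mesenchyme markers tested were called between the Ctrl groups, and 3 had an unadjusted p under 0.05. Within NRF1 OE, 3 of 6 mesenchyme markers tested and 3 of 5 endothelial markers were higher in BV+ cells and 0 lower. Among all genes 9.9% were higher and 3.85% lower. The higher markers included Kdr, Cdh5, Acta2, Pdgfrb and Postn, with log2 fold changes between 2.47 for Acta2 and 4.16 for Postn. The largest endothelial change was 5.28. Emcn had 2.47 and 1.36 CPM in BV+ NRF1 OE and 0.12, 0 and 0 CPM in BV- NRF1 OE. The 9 extraembryonic endoderm markers summed to 41.1 to 85.7 CPM over all groups and the 5 cartilage markers to 6.73 to 10.1 CPM, with Matn1 at 0 in all BV- libraries. Acan, with 5.15 to 8.81 CPM, made up most of the cartilage sum. Between the NRF1 OE groups 2 of 4 cartilage markers tested were higher in BV+ cells and 0 lower, with log2 fold changes up to 4.74. Hapln1 had 3.04 and 1.85 CPM in BV+ NRF1 OE and 0.18, 0 and 0.06 CPM in BV- NRF1 OE. The 6 pluripotency markers summed to 1827 to 2059 CPM in BV+ NRF1 OE and 2053 to 2615 CPM elsewhere. The part of these cells in the collagen differences was not tested.

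A dependence on base composition ran along with the vector. Across 13933 genes, Spearman's rho between GC content and a gene's deviation from its mean ranged from -0.568 to -0.475 among Ctrl libraries, of which there were 4. Values were 0.311 and 0.00395 in BV+ NRF1 OE and 0.0470, 0.673 and 0.540 in BV- NRF1 OE, a description across genes, which are not independent. Collagen transcripts had a median GC content of 55.1% against 49.8% for all genes tested, and a median length of 5989 against 3047 bases. With the GC and length trend of every library taken up as offsets, the collagens called in the BV+ vector comparison were the same 14, and the log2 fold change of Col1a2 was 1.99 and of Col1a1 1.62.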

How the data were processed

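RNA-seq libraries of sorted mouse cells (9 in 4 groups named from the sample titles) were analysed. The authors trimmed the reads, used Hisat2 2.0.1 for alignment to GRCm39 and HTSeq 0.6.1 for counting, and deposited a raw count and an FPKM per gene. Counts were tested in R 4.3.3 with edgeR 4.0.16 (quasi-likelihood F test, a single fit of all libraries, TMM factors, filterByExpr, 16903 of 33142 genes with a count), two-sided, at 0.05 after Benjamini-Hochberg adjustment across these genes. Standard errors were taken from the F statistic and are approximate. FPKM were used only as levels. Replicates are described as biological. The test sets each group difference against a spread between replicates that was estimated from all 4 groups together. Replicates differed more in the NRF1 OE groups. A chi-square of replicate counts against library totals averaged 3.18 per gene in BV+ Ctrl and 7.17 in BV- Ctrl. It was 22.8 in BV+ NRF1 OE and between 13.3 and 37.2 in BV- NRF1 OE. The shared spread may thus make p too small within NRF1 OE and too large within Ctrl. With only the groups compared in the fit, 13 collagens were called within NRF1 OE and 11 within Ctrl. All libraries come from BVSC PSCs, so the spread between replicates does not cover other lines. Precision is limited by 2 libraries in most groups.

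Values per library were given for the 8 collagens with the highest mean FPKM, the 4 with the lowest p in each direction and comparison, and the type IV chains. Collagens, classes, pathway genes and markers were chosen with earlier results of these data known. Transcript GC content, length and exon overlaps came from GENCODE vM21 (GRCm38), which held 98.6% of the tested genes. The procedures were tested on simulated data. Alternatives were DESeq2 1.42.0, other scalings and filters, a fit of only the groups compared, the study's threshold, a replicate block, GC and length offsets, and each library left out. Figures used Python and matplotlib.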

Additional observations from a re-analysis of the deposited data

How the results depend on the processing

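Without 1 library at a time, the collagens called numbered 0 to 17 for NRF1 OE in BV+ cells (14 with all libraries), 0 to 2 for NRF1 OE in BV- cells (2), 3 to 10 for BV+ against BV- in Ctrl (9), 12 to 17 in NRF1 OE (17) and 0 to 4 for the difference between the populations (0, and 4 without BV- NRF1 OE replicate 2). A group left with 1 library was assumed to vary like the others. The replicate block left 2 calls in BV+ cells and 0 in BV- cells, 8 and 13 for BV+ against BV-, and 0 for the difference. Whether replicate numbers pair the libraries is not known. Correlations of deviations between groups lay between -0.44 and 0.36, and they were positive only between the BV- groups (0.33 and 0.36). In a group of 2 libraries the deviations mirror each other, so these correlations cannot settle it. Replicate 3 exists in 1 group. For NRF1 OE in BV- cells, 4 collagens were called with no filter on low counts, 0 with only the groups compared in the fit, 1 (Col4a1, lower) with GC and length offsets, 0 with these offsets and the replicate block, and 6 by the study's rule (unadjusted p below 0.05 and a log2 change beyond 0.58 either way). That rule gave 15 for BV+ against BV- in Ctrl and 8 for the difference, for which DESeq2 and the fit with no filter each gave 5. Causes of these changes were not tested.

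Values below the threshold that turned negative were log2 fold changes near 0. With GC and length offsets, and then with these offsets and the replicate block, they were -0.15 and -0.15 for Col4a1 and -0.10 and -0.10 for Col18a1 with NRF1 OE in BV+ cells. In BV- cells they were -0.0585 and -0.0445 for Col1a1, -0.23 and -0.18 for Col4a2, -0.11 and -0.0682 for Col5a1, and -0.16 and -0.20 for Col9a2, and Col2a1 gave -0.00442 with offsets and block. Between the Ctrl groups they were -0.15 and -0.15 for Col4a1 and -0.0740 and -0.0748 for Col4a2. Library size alone gave -0.0150 for Col4a2 in BV- cells, and a filter of 10 counts on average gave -0.000686 for Col4a1 between the Ctrl groups. With a library left out, Col4a1 ranged from -0.0258 to 0.32 in BV+ cells and from -0.0241 to 0.0499 between the Ctrl groups, and in BV- cells Col1a1 ranged from -0.13 to 0.64, Col4a2 from -0.26 to 0.21 and Col5a1 from -0.0383 to 0.11. The interaction could not be fitted with only the groups compared.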
